A study of Mus musculus with 30 samples.

Results

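The genes described here encode the pore-forming and auxiliary subunits of potassium channels. They were taken as the symbols made of Kcn, further letters and a number, with the choroid plexus gene Kcnj13 left out, and with a level above 1 CPM (counts of a gene scaled to a common library size) in 3 or more libraries of that tissue. In the SVZ, 70 of 91 such symbols passed, among 16375 genes tested of 53278 in the count table. In the striatum, 70 of 91 passed as well, among 15419 genes tested of 50508. The choice used levels over all libraries and no comparison between groups.

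Potassium channels let potassium leave the cell and so set its resting potential, the shape of its spikes and the pauses between them. Voltage-gated (Kv) channels open on depolarization, inward rectifiers (Kir) hold the resting potential and clear extracellular potassium in glia, and 2-pore-domain (K2P) channels carry a leak current. Calcium- and sodium-activated channels (KCa) follow internal ions, and auxiliary subunits change the gating or the traffic of the pores. In the striatum, fast-spiking parvalbumin interneurons are known for Kv3 channels, medium spiny neurons for Kir2 and Kv4 channels, and astrocytes and oligodendrocytes for Kir4.1.

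RNA was sequenced from the subventricular zone (SVZ), the germinal layer along the lateral ventricle, and from the striatum of the same 15 C57Bl/6 mice, each mouse giving 1 library for either tissue. The NestinTK transgene drives a viral thymidine kinase from an enhancer in the second intron of Nestin, and neural precursors are lost only where it meets ganciclovir (GCV), a prodrug toxic to dividing cells that hold the kinase. The groups were 5 NestinTK+ mice given GCV (NestinTK+GCV+, called ablated), 3 wild-type mice given GCV (NestinTK-GCV+), 3 wild-type mice given phosphate-buffered saline (NestinTK-PBS+) and 4 NestinTK+ mice given saline (NestinTK+PBS+). The last 3 groups were pooled as 10 controls. The labels give neither age nor sex for these mice. The enhancer also acts in other Nestin-expressing cells, and whole tissue was taken, so that fewer cells of a type and less RNA per cell cannot be told apart in any value below.

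Mice are named by group and a number that serves as a name only. The SVZ libraries held 8.36 to 21.1 M counts and the striatum libraries 2.63 to 4.69 M. Libraries differed more from each other in the SVZ (edgeR's common biological coefficient of variation, 0.939) than in the striatum (0.251). The tissues had different library kits and depths, so that this is not a difference between mice alone. Ttr, which choroid plexus makes in abundance, was over 1% of counts in 3 SVZ control libraries, those of NestinTK-PBS+ mice 1 and 2 and NestinTK+PBS+ mouse 1. In the striatum, the library of NestinTK+PBS+ mouse 4 had 561 CPM of Pvalb, the marker of fast-spiking interneurons, and the other 14 libraries had 13.1 to 121 CPM. The same library had 1418 CPM of summed choroid plexus markers, against 12.8 to 49.8 CPM in the other 14. Its Ttr was 0.142% of counts, against at most 0.0030% in the others. Slc17a7, a marker of cortical excitatory neurons, was above 80 CPM in 3 striatum libraries, those of NestinTK-GCV+ mouse 3 and NestinTK+PBS+ mice 2 and 4. Their summed cortical excitatory markers were 615, 359 and 94.2 CPM, while ablated mouse 3, which is not among them, had 134 CPM. All 3 are controls and include NestinTK+PBS+ mouse 4. Leaving them out thus cannot tell cortical RNA from the other traits of that library. In the SVZ it was above 80 CPM in 2 libraries, those of ablated mouse 2 and NestinTK-GCV+ mouse 3, whose summed cortical excitatory markers were 528 and 615 CPM against at most 99.9 CPM in the others. Ablated mouse 2 also had the lowest SVZ sum of medium spiny neuron markers, 3845 CPM. The labels call the SVZ samples neural precursor cells, but markers of medium spiny neurons summed to 3845 to 12483 CPM in the ablated and 4817 to 10202 CPM in the control SVZ libraries. Neuroblast markers in the same libraries summed to 240 to 458 and 387 to 841 CPM. All GCV libraries have lower library numbers than all PBS libraries, so that GCV and the order of library numbers cannot be told apart.

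Most of the same subunits were measured in both tissues. Of the 91 genes, 64 passed in both, 6 in the SVZ alone (Kcna3, Kcne2, Kcng3, Kcnh6, Kcnk9 and Kcnmb1), 6 in the striatum alone (Kcne4, Kcng4, Kcnj14, Kcnj5, Kcnj6 and Kcnk5) and 15 in neither. At the edge of the rule, 3 striatum genes, among them Kcnn3 and Kcnj14, passed with exactly 3 libraries above 1 CPM, and 4 (Kcnq1, Kcnmb1, Kcne2 and Kcnk7) had 2 such libraries. In the SVZ 8 genes had exactly 2 libraries above 1 CPM and did not pass. The 70 genes comprised 34 Kv, 9 Kir, 8 K2P, 8 KCa and 11 auxiliary subunits in the SVZ and 32, 12, 8, 8 and 10 in the striatum. Exon bases shared with another gene occurred in 27 of the 91, and the strand setting of the authors' counting is not given in the sources used here, so that reads of those genes may include reads of the overlapping gene.

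SVZ levels are given per kilobase of exon, since that kit reads whole transcripts. The highest was Kcnip2, the calcium-binding partner of Kv4 channels, at 93.4 ± 25.6 CPM per kb (SD, n = 15). Kcnj4 (Kir2) followed at 44.8 ± 15.7, Kcnd2 (Kv4) at 42.1 ± 9.49, Kcnab2, a beta subunit of Kv1 channels, at 41.2 ± 8.71, and Kcnk1, a K2P channel, at 36.6 ± 10.4 CPM per kb. Kcnip2 stood above the others by more than these SDs, and the next 4 differed from each other by less than their SDs. The striatum kit counts 3′ ends, so that CPM there does not scale with length and depends on how well each 3′ end was captured. There Kcnj4 was highest at 681 ± 132 CPM (SD, n = 15), and Kcnd2 was 406 ± 59.9, Kcnip2 284 ± 70.8 and Kcna2, a Kv1 subunit, 240 ± 50.2 CPM. Kcnj4 lay above Kcnd2, and Kcnd2 above Kcnip2, by more than the larger SD of the pair, and Kcnip2 and Kcna2 differed by less than their SDs. Kcnj4, Kcnd2 and Kcnip2 were among the 5 highest in both tissues. The highest K2P gene of the striatum was Kcnk2, a mechanically gated leak channel, at 201 ± 39.5 CPM, and the highest KCa gene was Kcnma1, the large-conductance BK channel, at 98.0 ± 21.5 CPM.

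Control libraries varied less in the striatum than in the SVZ, whose kit and depth differ. The coefficient of variation over the 10 controls had a median of 36.5% over the 70 striatum genes and 59.7% over the 70 SVZ genes. By class, the median ran from 30.5% for auxiliary genes of the striatum to 90.6% for K2P genes of the SVZ, and it was 32.1% and 42.8% for Kv genes of the striatum and the SVZ. Summed over the 70 genes, striatum libraries held 4240 to 5430 CPM in ablated and 4332 to 5688 CPM in control mice. The SVZ sums were 4086 to 5198 and 3307 to 4518 CPM, and the groups overlapped in both tissues.

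In the striatum, no potassium channel gene was called lower or higher in ablated than in control mice, a call being a nominal p of at most 0.01 with at least a 2-fold change by edgeR's quasi-likelihood test. The test called 0.24% of all genes lower and 0.454% higher. At an unadjusted p under 0.05, 11 of the 70 genes were lower (5.31% of all genes tested) and 3 were higher (5.19% of all). None had an adjusted p under 0.05, which 0.182% of all genes had. The median log2 fold change was -0.09 over the 70 genes and 0.0037 over all genes, and 43 of the 70 (49.5% of all genes) lay below 0. The median of the 70 was -0.22 with NestinTK-GCV+ mice as the only controls and 0.0048 without the Slc17a7-rich libraries. By class, 9 Kv genes, 1 Kir gene and 1 K2P gene were among the 11 lower, and 1 Kv and 2 KCa genes were the 3 higher. The classes' medians were -0.10 for Kv, -0.08 for Kir, -0.23 for K2P, 0.35 for KCa and -0.07 for auxiliary genes.

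**Figure D1:**
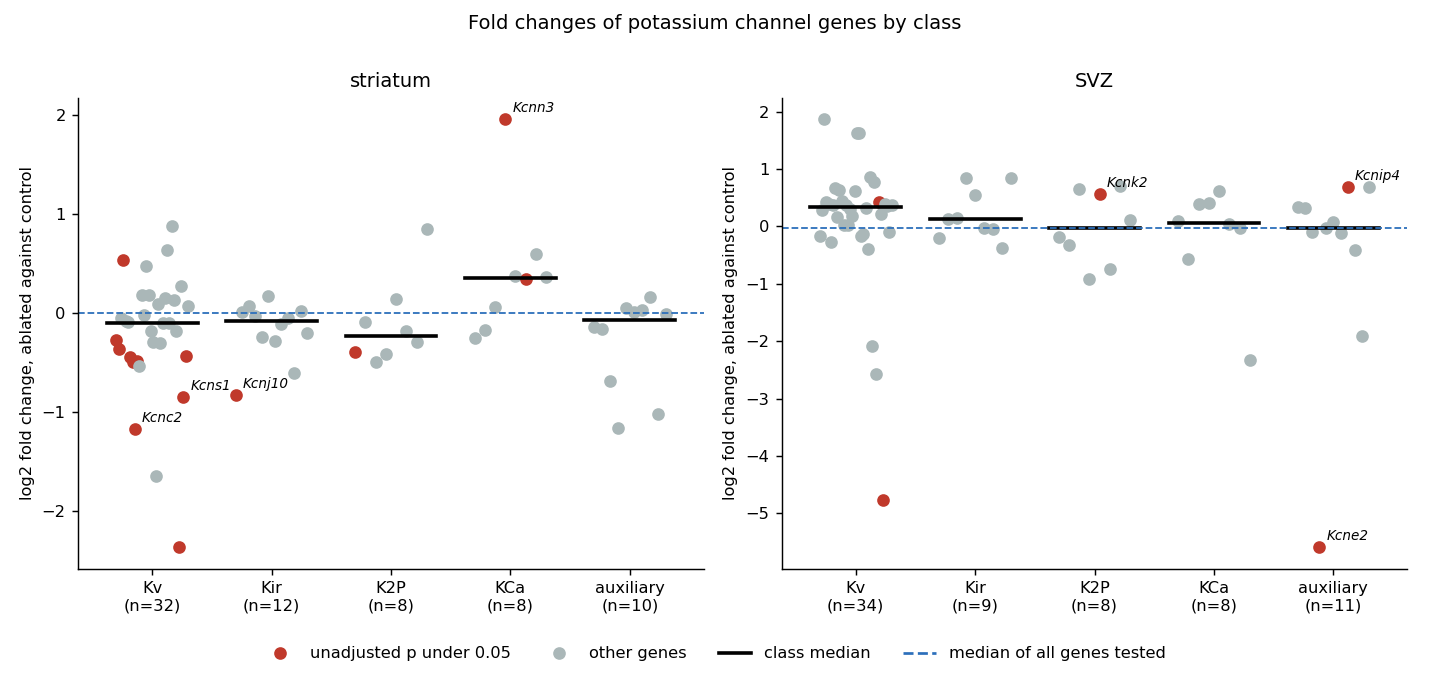
Log2 fold change of each potassium channel gene (1 point per gene) in ablated against control mice, by class, in the striatum (left) and the SVZ (right). Red points have an unadjusted p under 0.05 and some of them are named, black bars are class medians and the dashed line is the median of all genes tested. The class medians run from -0.23 to 0.35, and the lowest SVZ point is Kcne2 at -5.59, which was near 0 CPM in most libraries.

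Kcnj10 (Kir4.1), the glial inward rectifier, had the lowest p of the 70 genes in the striatum. Its levels in ablated mice were 29.6, 34.5, 37.0, 39.2 and 45.68 CPM. The 10 controls ran from 45.74 to 121.7 CPM with a median of 63.4. The highest ablated library thus lay just under the lowest control, and Kcnj10 was the only gene of the 70 whose groups did not overlap (0.532% of all genes tested did not overlap). The mean was 37.2 ± 5.94 CPM (SD, n = 5) against 66.3 ± 21.1 (n = 10), a log2 fold change of -0.83 ± 0.183 (SE, adjusted p = 0.0604, Benjamini-Hochberg over all genes tested, edgeR's quasi-likelihood test). Without NestinTK+PBS+ mouse 4, whose 122 CPM was the highest value, it was -0.69 (adjusted p = 0.0221). Without the 3 libraries above 80 CPM of Slc17a7 it was -0.71 (adjusted p = 0.0430 by the same test). In both fits the change was smaller and the adjusted p lower. Leaving out each of the 15 mice in turn gave adjusted p-values from 0.0221 to 0.231 by the same test.

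Oligodendrocyte markers and some astrocyte markers also had lower levels in ablated than in pooled control mice. All 7 oligodendrocyte markers lay below 0 in the striatum of ablated mice, 6 of them at an unadjusted p under 0.05, with a median log2 fold change of -0.63. Mag, a myelin adhesion protein, changed by -0.91 (adjusted p = 0.0117, edgeR's quasi-likelihood test). The summed markers were 2051 to 2717 CPM in ablated and 2232 to 5786 CPM in control libraries, and NestinTK+PBS+ mouse 4 was highest in both the sum and Kcnj10. By control group, the sum was 2232 to 2960 CPM in NestinTK-GCV+, 3144 to 4666 in NestinTK-PBS+ and 2718 to 5786 in NestinTK+PBS+ mice. It was thus lower with GCV than with PBS in NestinTK- mice too, without overlap, while Kcnj10 overlapped between those groups. Ablated and NestinTK-GCV+ mice overlapped in the sum. Of 7 astrocyte markers 3 were lower at an unadjusted p under 0.05, among them Gfap (-1.57, adjusted p = 0.0736), while Slc1a2 and Slc1a3, the astrocytic glutamate transporters, changed by -0.13 and 0.17. The astrocyte sum was 3065 to 3486 CPM in ablated and 3238 to 3851 CPM in control libraries. No defining marker of either list was at 0. The part of either cell type in the Kcnj10 result was not tested.

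**Figure D2:**
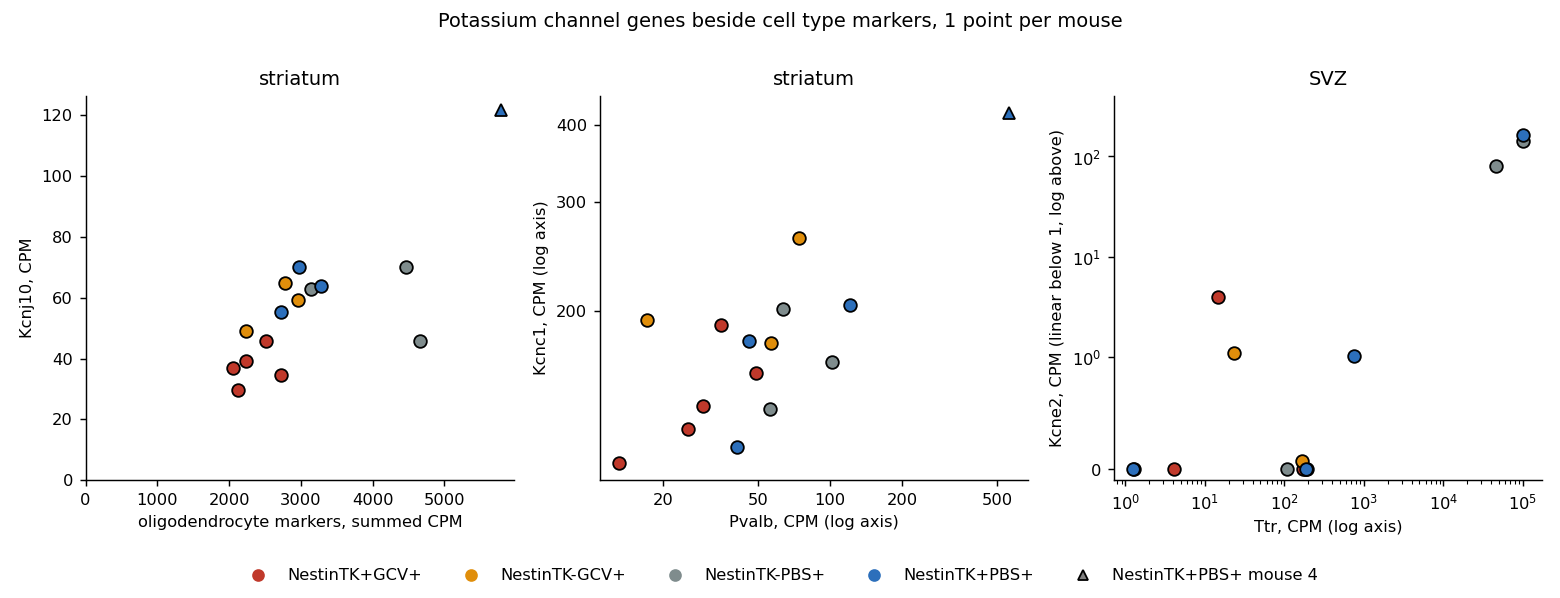
Potassium channel genes beside markers, 1 point per mouse: Kcnj10 against summed oligodendrocyte markers (left) and Kcnc1 against Pvalb (middle) in the striatum, and Kcne2 against Ttr in the SVZ (right), in CPM. NestinTK+PBS+ mouse 4 (triangle) has the highest value on both axes of both striatum panels, and the 3 SVZ libraries with 80.4 to 162 CPM of Kcne2 are those with Ttr over 1% of counts.

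Kcnj10 and Kcnj2 were the inward rectifiers with an adjusted p under 0.05 in a contrast of the 4 groups described further on, and their promoter windows are printed here so that both can be read beside their levels. The windows run from 250 bases before to 50 after the annotated start (RefSeq, GRCm38.p6), 5′ to 3′ on the gene's strand, at chr1:172340960-172341259 (+ strand) for Kcnj10 and chr11:111065914-111066213 (+ strand) for Kcnj2. Capitals mark the GC box GGGCGG on either strand.
Kcnj10: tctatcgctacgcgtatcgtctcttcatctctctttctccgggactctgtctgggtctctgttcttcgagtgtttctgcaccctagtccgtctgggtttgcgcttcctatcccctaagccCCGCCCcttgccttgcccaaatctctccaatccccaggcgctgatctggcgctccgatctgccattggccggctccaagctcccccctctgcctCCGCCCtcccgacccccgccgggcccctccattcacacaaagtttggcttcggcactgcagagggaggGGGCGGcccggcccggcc
Kcnj2: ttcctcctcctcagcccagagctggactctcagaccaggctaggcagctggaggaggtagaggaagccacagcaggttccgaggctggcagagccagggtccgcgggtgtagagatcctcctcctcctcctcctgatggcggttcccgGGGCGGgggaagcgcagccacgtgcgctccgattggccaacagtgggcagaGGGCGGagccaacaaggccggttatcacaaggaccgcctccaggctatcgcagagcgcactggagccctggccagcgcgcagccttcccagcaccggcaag
The Kcnj10 window holds 3 GC boxes and 21 CpG, and the Kcnj2 window 2 GC boxes and 18 CpG. A GC box occurred in 35.7% of all 32851 promoter windows and in 48.4% of the 91 windows that matched 66 of the 91 potassium channel genes. Neither window holds a TATAAA sequence, which 13.6% of all windows do.

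The other inward rectifiers of the striatum showed no such gap. Kcnj4, the Kir2 gene typical of medium spiny neurons, was 647 ± 107 CPM (SD, n = 5) in ablated and 698 ± 145 (n = 10) in control mice, a log2 fold change of -0.11 ± 0.157. Kcnj16, a glial partner of Kcnj10, was 22.6 ± 6.39 and 26.6 ± 9.46 CPM. Kcnj9, a G-protein-gated channel whose gene starts 11.9 kb from the start of Kcnj10 on the opposite strand of chromosome 1, was 42.0 ± 6.04 and 48.4 ± 28.9 CPM. For each of these 3 genes the unadjusted p was at least 0.306 and the groups overlapped.

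Among Kv genes, the Kv3 subunits Kcnc1 and Kcnc2, which let fast-spiking neurons repolarize quickly, had lower means in ablated mice, with 1 control library far above the rest. Kcnc1 was 114, 129, 141, 159 and 190 CPM in ablated mice. In controls it ran from 121 to 418 CPM with a median of 186, and the 418 CPM was NestinTK+PBS+ mouse 4. The log2 fold change was -0.49 ± 0.209 (SE, adjusted p = 0.403, edgeR's quasi-likelihood test) and -0.32 (unadjusted p = 0.0402 in the same test) without that mouse. Kcnc2 was 9.87 to 15.2 CPM in ablated mice and 6.09 to 102 CPM in controls, with a log2 fold change of -1.17 ± 0.490, and of -0.59 (unadjusted p = 0.0626) without NestinTK+PBS+ mouse 4. Both genes overlapped between groups, with NestinTK+PBS+ mouse 4 highest. Pvalb had a log2 fold change of -1.90 (unadjusted p = 0.00385, adjusted p = 0.214, edgeR's quasi-likelihood test), from a control median of 59.9 to an ablated median of 29.2 CPM, while the other 6 interneuron markers had unadjusted p-values of at least 0.125. The Pvalb change includes the library of NestinTK+PBS+ mouse 4, far above all others for Pvalb, and its value without that library is not given here. Whether the number of fast-spiking interneurons in the sample bears on the Kv3 values was not tested.

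Of the Kv1 genes, which set the threshold and delay of firing, Kcna1 and Kcna2 had lower means in ablated mice and neither was called. Kcna2 was 185, 190, 193, 215 and 228 CPM in ablated mice and 207 to 354 CPM in controls (median 252). Its log2 fold change was -0.36 ± 0.127 (SE, adjusted p = 0.305, edgeR's quasi-likelihood test). Kcna1 was 81.4 to 116 CPM against 107 to 145 CPM, with a log2 fold change of -0.27 ± 0.111. In each, 3 ablated mice lay below the lowest control, and the 2 highest ablated mice lay within the control range. Kcna4 and Kcna6 had log2 fold changes of -0.05 and -0.08. Kcna5 had a higher mean, at 26.0 ± 3.72 CPM (SD, n = 5) against 17.9 ± 6.35 (n = 10), a log2 fold change of 0.54 ± 0.227. Kcns1, an electrically silent subunit that modifies Kv2 channels, was 3.44 ± 1.33 against 6.23 ± 1.80 CPM (-0.84 ± 0.315), and the ranges overlapped.

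Other Kv genes with an unadjusted p under 0.05 were Kcnb2, a Kv2 subunit (-0.45), and Kcns2, another silent subunit (-0.44). Kcnq3, an M-channel subunit, and Kcnd2, the abundant Kv4 gene of medium spiny neurons, had log2 fold changes of -0.18 and -0.02.

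**Figure D3:**
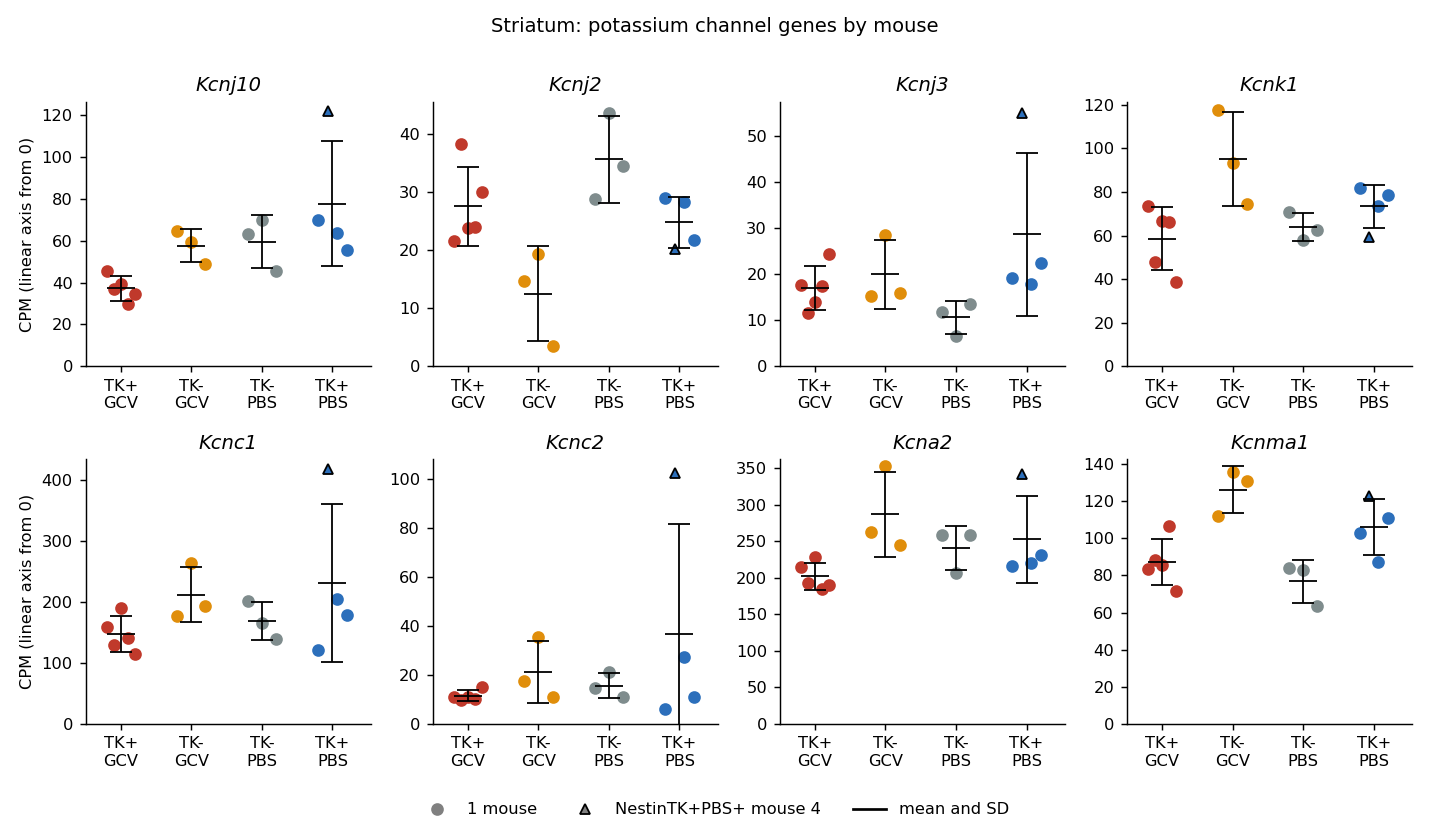
Striatal levels in CPM of 8 potassium channel genes in each mouse, by group, with bars for the mean ± SD of a group, cut at 0. The triangle is NestinTK+PBS+ mouse 4, which is highest for Kcnj10, Kcnj3, Kcnc1 and Kcnc2, and the lowest point for Kcnj2 is NestinTK-GCV+ mouse 2 at 3.50 CPM.

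Among the remaining classes, Kcnk1, a K2P subunit abundant in astrocytes and neurons, was 38.8, 47.9, 66.2, 66.5 and 73.5 CPM in ablated mice. Controls ran from 58.1 to 117 CPM with a median of 74.0, and 2 ablated mice lay below all of them. Its log2 fold change was -0.39 ± 0.167 (SE, adjusted p = 0.405, edgeR's quasi-likelihood test). Kcnt1, a sodium-activated channel, was 66.8 to 101 CPM in ablated and 27.8 to 76.6 CPM in control mice (0.34 ± 0.162), with NestinTK+PBS+ mouse 4 lowest. Kcnn3, a small-conductance calcium-activated channel, was 0.665 to 2.84 CPM against 0 to 1.11 CPM (1.96 ± 0.738), from 37 counts over all 15 libraries. None of the 10 auxiliary genes had an unadjusted p under 0.05, and Kcnip2 and Kcnab1 had log2 fold changes of 0.01 and -0.14.

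The 4 groups were then fitted apart, which sets GCV against saline within a genotype and NestinTK+ against NestinTK- mice within a treatment. These contrasts share mice, so their values stand side by side and are not counted as separate evidence. GCV against PBS in NestinTK+ mice called 2 of the 70 genes (1.35% of all genes), and 1 had an adjusted p under 0.05 (0.149% of all). NestinTK+ against NestinTK- mice under GCV called 1 (2.1% of all) and gave 2 with an adjusted p under 0.05 (3.13% of all). GCV against PBS in NestinTK- mice, which lack the kinase, called 1 (2.46% of all) and gave 2 with an adjusted p under 0.05 (2.06% of all). NestinTK+ against NestinTK- mice under PBS called 1 (0.83% of all), with no gene at an adjusted p under 0.05 (0% of all). The interaction of genotype and treatment called 4 (3.28% of all), and 1 gene had an adjusted p under 0.05 (0.817% of all).

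Kcnj10 was lower after GCV than after saline in NestinTK+ mice. The NestinTK+PBS+ mice had 55.4, 63.8, 70.1 and 122 CPM, above all 5 ablated mice. The NestinTK-GCV+ mice had 49.0, 59.3 and 64.7 CPM and the NestinTK-PBS+ mice 45.7, 63.0 and 70.1 CPM, which overlapped. GCV against PBS gave a log2 fold change of -1.06 ± 0.197 in NestinTK+ mice (SE, adjusted p = 0.0387, edgeR's quasi-likelihood test) and of -0.05 ± 0.235 in NestinTK- mice. The interaction was -1.01 ± 0.307 (adjusted p = 0.101 by the same test). Kcnj10 was not called for NestinTK+ against NestinTK- mice under GCV or under PBS. Its adjusted p was above 0.05 in both, by the same test. Without NestinTK+PBS+ mouse 4 the change in NestinTK+ mice was -0.76 (adjusted p = 0.0992) and the interaction -0.71, neither past the 2-fold limit. The call in NestinTK+ mice was also lost without ablated mouse 3 (-0.99) and without the Slc17a7-rich libraries (-0.84). With each of the 15 mice left out in turn, the interaction missed the call 6 times.

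Kcnj2 (Kir2), whose current keeps medium spiny neurons silent at rest, differed between the wild-type groups. Its levels were 3.50, 14.7 and 19.4 CPM in NestinTK-GCV+ mice and 28.8, 34.6 and 43.6 CPM in NestinTK-PBS+ mice, with no overlap. Ablated mice had 21.6 to 38.4 CPM and NestinTK+PBS+ mice 20.3 to 28.9 CPM, which overlapped. GCV against PBS in NestinTK- mice gave a log2 fold change of -1.50 ± 0.349 (SE, adjusted p = 0.0267, edgeR's quasi-likelihood test), NestinTK+ against NestinTK- mice under GCV 1.13 ± 0.326 (adjusted p = 0.0552) and the interaction 1.65 ± 0.447 (adjusted p = 0.0779). Without NestinTK-GCV+ mouse 2, which had 3.50 CPM, these were -1.06, 0.69 and 1.21, and the second was no longer called, nor was it without ablated mouse 1.

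Kcnma1, the BK channel, showed a smaller change of the same layout in the opposite direction. It was 112, 131 and 136 CPM in NestinTK-GCV+ mice and 63.6, 82.9 and 84.2 CPM in NestinTK-PBS+ mice, with no overlap. Ablated mice had 71.8 to 107 CPM and NestinTK+PBS+ mice 87.1 to 123 CPM. The log2 fold change was 0.72 ± 0.170 for GCV against PBS in NestinTK- mice (adjusted p = 0.0308, edgeR's quasi-likelihood test), -0.54 ± 0.151 for NestinTK+ against NestinTK- mice under GCV (adjusted p = 0.0498) and -0.999 ± 0.220 for the interaction (adjusted p = 0.0347), the lowest interaction p of the 70 genes. With each of the 15 mice left out in turn, the adjusted p of Kcnma1 ran from 0.00877 to 0.191 in the first contrast, by the same test. It ran from 0.0195 to 0.203 under GCV and from 0.0144 to 0.159 for the interaction. Kcnk1 was 74.3 to 117 CPM in NestinTK-GCV+ mice, above all 5 ablated mice, a log2 fold change of -0.69 ± 0.185 for NestinTK+ against NestinTK- under GCV (adjusted p = 0.0390, the same test). Leaving out each mouse in turn gave adjusted p-values of Kcnk1 from 0.0131 to 0.214 by that test.

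The remaining calls were each lost when 1 library or another was left out. Kcnj3, a G-protein-gated channel, was 17.8, 19.2, 22.5 and 55.0 CPM in NestinTK+PBS+ mice and 6.67, 11.8 and 13.6 CPM in NestinTK-PBS+ mice. The log2 fold change was 1.42 ± 0.365 under PBS (adjusted p = 0.675, edgeR's quasi-likelihood test) and 0.89 without NestinTK+PBS+ mouse 4, when it was no longer called. Kcnc2 was 6.09, 11.1, 27.3 and 102 CPM in NestinTK+PBS+ mice, and GCV against PBS gave -1.69 ± 0.511 in NestinTK+ mice (adjusted p = 0.192), but -0.37 (unadjusted p = 0.319) without NestinTK+PBS+ mouse 4. The interactions of Kcnj3 (-1.66 ± 0.494) and Kcnc4, another Kv3 subunit (-1.74 ± 0.596), were not called without NestinTK-GCV+ mouse 3, which had the highest NestinTK-GCV+ value of both. With each of the 15 mice left out in turn, the Kcnj3 interaction missed the call 2 times and that of Kcnc4 8 times, one of them without NestinTK+PBS+ mouse 4 (-1.26 for Kcnc4, unadjusted p = 0.0253 in the same test). NestinTK-GCV+ mouse 3 also had 412 CPM of Slc17a7, NestinTK+PBS+ mouse 2 had 212 and NestinTK+PBS+ mouse 4 had 88.4. Without these 3 libraries the interaction called only Kcnj2, at 1.93 (adjusted p = 0.0186), and the part of cortical RNA in the other calls was not tested further.

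**Figure D4:**
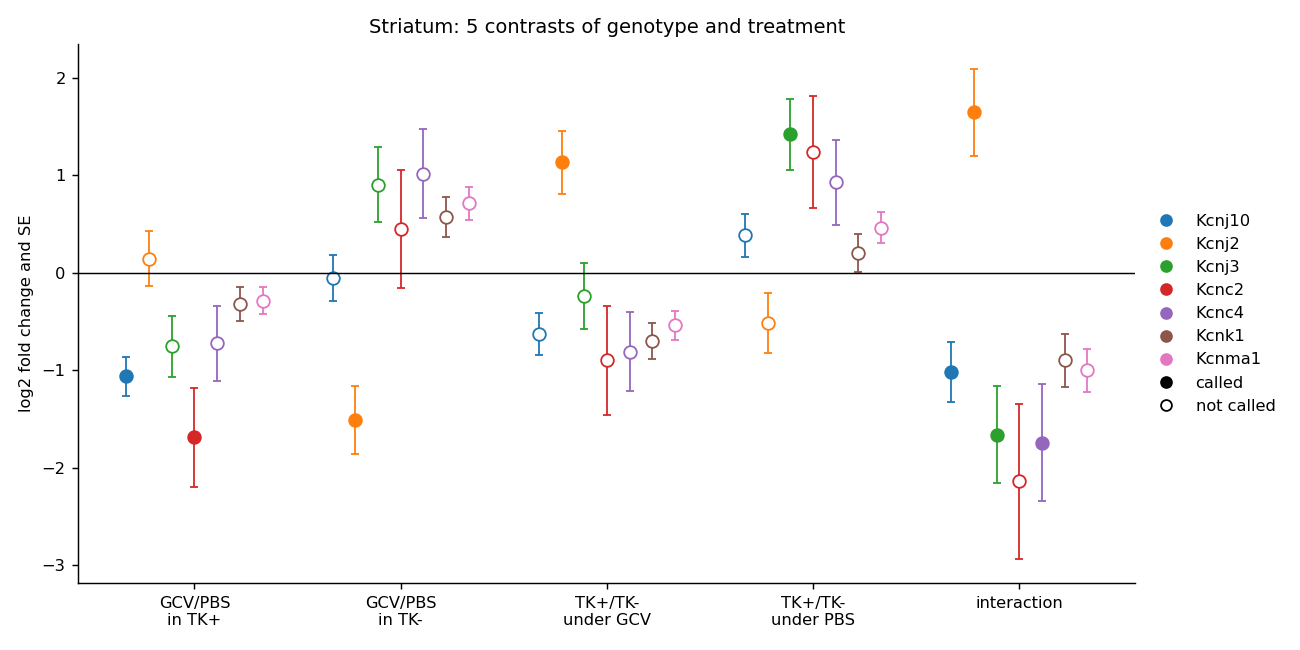
Log2 fold change ± SE in the striatum for 7 potassium channel genes in the 5 contrasts of the 4 groups, with filled symbols for calls. Kcnj10 and Kcnc2 are called for GCV against PBS in NestinTK+ mice, at -1.06 and -1.69, and Kcnj2 for GCV against PBS in NestinTK- mice, at -1.50.

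In the SVZ, no potassium channel gene was called in ablated against control mice either. All genes gave 1.22% called lower, 0.373% called higher and 0.00611% with an adjusted p under 0.05. At an unadjusted p under 0.05, 2 of the 70 genes were lower (6.09% of all) and 3 higher (3.73% of all), and in none did the groups not overlap (0.256% of all). The median log2 fold change was 0.18 over the 70 genes and -0.03 over all genes, and 44 of the 70 lay above 0 (51.9% of all genes lay below). The median of the 70 was 0.19 without the 2 Slc17a7-rich libraries, 0.08 without ablated mouse 2 alone and -0.0063 with NestinTK-GCV+ mice as the only controls. Kv genes had a median of 0.34, with 25 of 34 above 0, and the other classes had medians of 0.13 (Kir), -0.03 (K2P), 0.07 (KCa) and -0.03 (auxiliary).

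The higher genes included Kcnk2 and Kcnip4, and their groups overlapped. Kcnk2, the mechanically gated leak channel, was 62.1, 97.1, 103, 107 and 146 CPM in ablated mice and 36.3 to 114 CPM in controls with a median of 66.1. Its log2 fold change was 0.56 ± 0.227 (SE, adjusted p = 0.427, edgeR's quasi-likelihood test), and 1 ablated mouse lay above all controls. Kcnip4, a partner of Kv4 channels, was 60.1 ± 16.0 CPM (SD, n = 5) against 37.5 ± 16.0 (n = 10), a log2 fold change of 0.68 ± 0.301. Kcnab2 lay just outside that p, at 0.32.

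Of the lower genes, Kcne2 had nearly all its counts in few libraries. Kcne2, an auxiliary subunit of the choroid plexus and of Kv7 channels, was 144, 80.4 and 162 CPM in the 3 control libraries rich in Ttr. It was at most 3.96 CPM in the other 12. Its log2 fold change was -5.59 ± 2.26 (adjusted p = 0.427, edgeR's quasi-likelihood test) and 1.30 (unadjusted p = 0.497) without those 3 libraries.

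**Figure D5:**
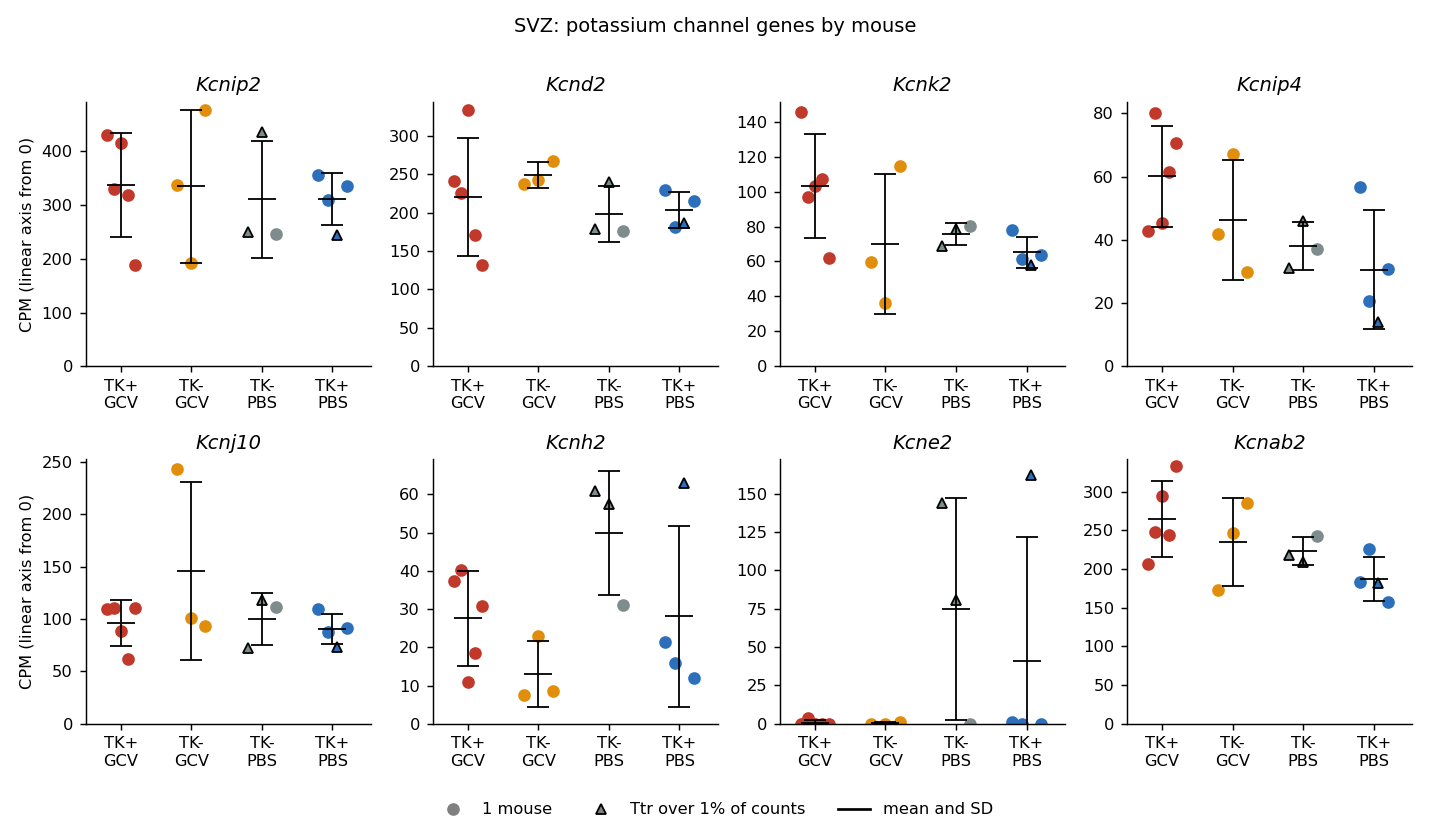
SVZ levels in CPM of 8 potassium channel genes in each mouse, by group, with bars for the mean ± SD of a group, cut at 0. Triangles are the 3 libraries with Ttr over 1% of counts, which hold nearly all Kcne2 (80.4 to 162 CPM) and the 3 highest values of Kcnh2 (57.4 to 63.0 CPM).

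Of the 5 contrasts in the SVZ, GCV against PBS in NestinTK- mice called 1 gene (1.06% of all). The others called 0, against 1.19% of all genes for GCV against PBS in NestinTK+ mice, 0.94% for NestinTK+ against NestinTK- mice under GCV, 0.195% under PBS and 0.837% for the interaction. The gene was Kcnh2 (the ERG channel), at 7.61, 8.70 and 23.0 CPM in NestinTK-GCV+ mice and 31.2, 57.4 and 60.9 CPM in NestinTK-PBS+ mice, a log2 fold change of -1.93 ± 0.666 (adjusted p = 0.646, edgeR's quasi-likelihood test). Of the NestinTK-PBS+ libraries, 2 were rich in Ttr, and without the 3 Ttr-rich libraries it was -1.25 (unadjusted p = 0.155 in the same test). With each of the 15 mice left out in turn, Kcnh2 missed the call 9 times. Kcnj10, the gene with the lowest p in the striatum, was 96.2 ± 21.5 CPM (SD, n = 5) in ablated and 110 ± 49.2 (n = 10) in control SVZ, a log2 fold change of -0.19 ± 0.252. The 7 oligodendrocyte markers all lay below 0 in the SVZ too, none at an unadjusted p under 0.05. The difference between the tissues was not tested, since their kits differ.

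Other genes bind or regulate these channels. Of 14 such partners, 11 were tested in the striatum, where none was called (0.24% of all genes called lower and 0.454% higher). Of these, 8 lay below 0 (49.5% of all genes) and 1 was lower at an unadjusted p under 0.05 (5.31% of all). That gene was Cntn2, an axonal adhesion protein that gathers Kv1 channels beside the nodes of Ranvier and is also made by oligodendrocytes, at 96.8 ± 25.1 CPM (SD, n = 5) against 153 ± 31.5 (n = 10). Its log2 fold change was -0.66 ± 0.158 (adjusted p = 0.0773, edgeR's quasi-likelihood test). In the SVZ 12 were tested, 4 were higher (3.73% of all genes) and 1 lower (6.09% of all) at an unadjusted p under 0.05. Lrrc26, an auxiliary protein of BK channels, was the only call in ablated against control mice (0.373% of all genes were called higher). It was 6.48 ± 9.07 CPM (SD, n = 5) against 0.130 ± 0.411 (n = 10), from 279 counts in all. The lower gene was Kcnrg, a regulator of Kv channels, with 99 counts in all and none in ablated mice. The others were Dpp6, an auxiliary protein of Kv4 channels (0.44 ± 0.198), Dlg4, a synaptic scaffold (0.41 ± 0.174), and Abcc8, the sulfonylurea receptor (1.40 ± 0.670). In the SVZ contrasts, Lrrc26 was called for GCV against PBS in NestinTK+ mice (1.19% of all genes). Kcnrg was called for NestinTK+ against NestinTK- mice under GCV (-8.03, 0.94% of all genes called), and 1 partner was called in the interaction (0.837% of all).

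The study recorded inhibitory currents in medium spiny neurons and in pairs of fast-spiking interneurons and medium spiny neurons. After ablation it reports smaller and less frequent spontaneous currents, and more pairs with failures. In those pairs the rate of connection and the current amplitude did not change, while the pool of releasable vesicles was smaller. Connections among medium spiny neurons and from somatostatin interneurons were reported as unchanged. The pairs with fast-spiking interneurons came from NestinTK mice that also carried a parvalbumin reporter. GCV was given for a shorter time for recordings than for the other experiments. No potassium current was taken. A list of 24 potassium channel genes with known roles in these neurons and in glia was therefore described as a whole, among them Kcnc1, Kcnc2, Kcna1, Kcna2, Kcna4, Kcnd2, Kcnip2, Kcnq3, Kcnj2, Kcnj4, Kcnj3, Kcnj6, Kcnj9, Kcnj10, Kcnj16, Kcnk1, Kcnk2, Kcnma1, Kcnmb4, Kcnn2, Kcnab1 and Kcnab2. In the striatum all 24 were tested, 19 lay below 0 in ablated mice (49.5% of all genes), 6 were lower and 0 higher at an unadjusted p under 0.05 (5.31% and 5.19% of all), and the median log2 fold change was -0.17. In the SVZ 23 were tested, 18 lay above 0 and 5 below (51.9% of all genes lay below), 0 were lower and 2 higher at that p (6.09% and 3.73% of all), and the median was 0.32. The list was chosen with earlier results of these data known, and its tested genes are among those already counted above. These shares are thus no separate evidence. None of the 24 was called in ablated against pooled control mice in either tissue. That comparison thus gives no called channel to set beside the recordings. In the striatal contrasts of the 4 groups, Kcnj10, Kcnc2, Kcnj2 and Kcnj3 of the list were called, with the limits given above. Among these, Kcnj10 (-1.06) and Kcnc2 (-1.69) were called for GCV against PBS in NestinTK+ mice.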

How the data were processed

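Libraries were made by the authors from the SVZ with a full-length cDNA kit (SMART-Seq v4) and from the striatum with a 3′ end kit (QuantSeq), aligned to mm10 with STAR 2.5.3a after trimming (Trimmomatic 0.36 per the labels) and counted per gene with featureCounts; the values used are the raw counts as deposited, with no normalization. Genes above 1 CPM in 3 or more libraries were tested, each tissue apart, with edgeR 4.0.16 (R 4.3.3, TMM factors, quasi-likelihood test, Benjamini-Hochberg adjustment over all genes tested). CPM values use TMM-scaled library sizes. A call needed a nominal p of at most 0.01 and a 2-fold change, the study's limits. The control groups were pooled, then the 4 groups were fitted with 5 contrasts. The test was checked on simulated counts. Named genes were those called, a list of known roles, the 2 highest of each class and the 3 lowest p-values in each direction, with partner and marker lists. The members and lists were chosen with earlier results of these data known. Alternatives were other scaling factors, no filter, DESeq2 1.42.0, limma-voom (limma 3.58.1), single control groups, the mouse number series as a covariate, leaving out each mouse, and leaving out libraries rich in Ttr. Leaving out libraries rich in Slc17a7 or NestinTK+PBS+ mouse 4, and the Ttr-rich libraries in the contrasts, was chosen after seeing the data. Each library is a separate mouse. Exon lengths came from GENCODE vM21 (GRCm38). Some of the genes enter the counts and medians but are not reported here by name.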

Additional observations from a re-analysis of the deposited data

Results flagged for a closer look

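Among 159 pairs of a named potassium channel gene and a group of 4 to 10 mice, 17 (10.7%) had a mouse far from the rest of its group on the log2 scale. For independent pairs, chance gives about 1 in 20. Pairs here share libraries, and the 10 controls include the NestinTK+PBS+ mice, so that 10.7% cannot be set against that rate. NestinTK+PBS+ mouse 4 accounted for 9 of the 12 in the striatum. Within the NestinTK+PBS+ group it had 125 CPM of Kcna1 (the others 107 to 110.1), 342 of Kcna2 (216 to 231), 6.94 of Kcna5 (20.7 to 23.7), 125 of Kcnj9 (35.4 to 42.1) and 27.8 of Kcnt1 (58.2 to 64.2). Within the 10 controls it had 109 CPM of Kcnip2 (the others 225 to 396), 122 of Kcnj10 (45.7 to 70.1), 316 of Kcnj4 (639 to 799) and 27.8 of Kcnt1 (58.2 to 76.6). The genes typical of medium spiny neurons (Kcnj4, Kcnip2) were low and those of fast-spiking or glial cells high in that library, whose summed medium spiny neuron markers, 4178 CPM, were the lowest of the striatum. The other striatal values were Kcnc2 at 15.2 CPM in ablated mouse 2 (9.87 to 11.1), Kcnj2 at 3.50 in NestinTK-GCV+ mouse 2 (14.7 to 43.6) and Kcns1 at 1.11 in ablated mouse 3 (3.63 to 4.32).

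In the SVZ, ablated mouse 2 had 101 CPM of Kcnab1 (324 to 487) and 27.6 of Kcnmb4 (5.88 to 8.06). Ablated NestinTK+GCV+ mouse 1 had 3.96 CPM of Kcne2 (the others 0), ablated mouse 4 had 120.3 of Kcnma1 (174 to 200.4), and NestinTK-GCV+ mouse 1 had 243 of Kcnj10 (71.9 to 118).

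In the striatum, 5 genes were flagged by the interaction of genotype and treatment in edgeR's fit, being called or having an adjusted p under 0.05. They were Kcnj10 (-1.01), Kcnj3 (-1.66), Kcnc4 (-1.74), Kcnj2 (1.65) and Kcnma1 (-0.999, the only one with an adjusted p under 0.05). The first 4 were called, as were 3.28% of all genes. With each of the 15 mice left out in turn, Kcnj10 missed the call 6 times, Kcnj3 2, Kcnc4 8 and Kcnj2 0 times, and only Kcnj2 was called without the Slc17a7-rich libraries.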

How the results depend on the processing

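No called value changed sign. In ablated against control, uncalled values did, among them in the SVZ Kcne2 (-5.59 to 1.30 without the Ttr-rich libraries), Kcnh2 (-0.13 to 1.07 with NestinTK-GCV+ mice as the only controls), and Kcnc2 (0.64) and Kcnn2 (0.39), which were -0.99 and -0.44 without ablated mouse 2. Both medians did so too, from 0.18 to -0.0063 in the SVZ with NestinTK-GCV+ mice as the only controls and from -0.09 to 0.0048 in the striatum without the Slc17a7-rich libraries. In the SVZ no alternative called any of the 70 genes in ablated against control. In the striatum, 1 gene was called lower without the filter, 2 against NestinTK+PBS+ mice alone and 2 with the mouse number series as a covariate, and 1 higher by limma-voom and when NestinTK-GCV+ mice alone were the controls. For GCV against PBS in NestinTK+ mice, the count of calls went from 0 to 1 in the SVZ without the filter and by DESeq2, and in the striatum from 2 to 5 without the filter, 1 by DESeq2 and by limma-voom, and 0 without the Slc17a7-rich libraries. For NestinTK+ against NestinTK- mice under GCV it went from 0 to 1 in the SVZ by limma-voom, and in the striatum from 1 to 2 without the Slc17a7-rich libraries. For GCV against PBS in NestinTK- mice it went from 1 to 5 without the filter, 2 by DESeq2 and by limma-voom and 0 without the Ttr-rich libraries in the SVZ, and from 1 to 2 without the filter in the striatum. For NestinTK+ against NestinTK- mice under PBS it went from 0 to 2 without the filter and by DESeq2 and 1 without the Ttr-rich libraries in the SVZ, and from 1 to 4 without the filter and 0 without the Slc17a7-rich libraries in the striatum. For the interaction it went from 0 to 1 by limma-voom and without the Slc17a7-rich libraries in the SVZ, and from 4 to 8 without the filter and 1 without the Slc17a7-rich libraries in the striatum. Without its Slc17a7-rich libraries the SVZ had 4 genes lower and 5 higher at an unadjusted p under 0.05 (2 and 3 with all). The share of all genes called is not given here for these alternatives, nor for the fits with 1 mouse left out. These counts thus cannot be set against the rate of calls among all genes. The causes were not tested.

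Leaving out 1 mouse gave 0 to 0 calls in each direction in the SVZ and 0 to 1 in the striatum for ablated against control. The medians ran from 0.08 to 0.30 in the SVZ and from -0.14 to -0.06 in the striatum. In the contrasts, in the order given above, the calls ran over 0 to 1, 0 to 1, 0 to 2, 0 to 1 and 0 to 2 in the SVZ and 0 to 6, 0 to 1, 1 to 3, 0 to 6 and 1 to 9 in the striatum. The highest striatum counts came without NestinTK+PBS+ mouse 3 (6 for GCV in NestinTK+, 6 for genotype under PBS and 9 for the interaction) or NestinTK-PBS+ mouse 1 (3), and the lowest without NestinTK+PBS+ mouse 4, ablated mouse 1 or NestinTK-GCV+ mouse 3. No paired analysis was possible because each group holds different mice and the replicate numbers only name samples. For ablated against control in the striatum, Kcnj10 had an adjusted p under 0.05 without the filter (0.0181), by DESeq2 (0.00648) and against NestinTK-GCV+ mice alone (0.0188). That last fit held no other group, unlike the contrast of genotypes under GCV, where its adjusted p was above 0.05. The adjusted p was also under 0.05 without NestinTK+PBS+ mouse 4, NestinTK-GCV+ mouse 2 (0.0333), NestinTK-PBS+ mouse 3 or the Slc17a7-rich libraries. The adjusted p of Kcnj10 ran from 0.0221 to 0.231 with each of the 15 mice left out in turn. Over the other alternatives it ran from 0.00648 to 0.0671. Depth limits Kcnn3 and other genes with few counts.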
